A study of Mus musculus with 3 samples.

Results

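Distal regions open in skeletal muscle nuclei were taken from snATAC-seq of mouse embryo sections as 1 kb bins of the mm10 genome. A bin was kept if it lay on an autosome and more than 2 kb from every GENCODE transcription start site (TSS), and if the nuclei of the deposited cluster 10 held at least 15 fragments with their midpoint in it. In addition, its fragments-per-million value (FPM) in cluster 10, with 0.1 added, had to reach 3 times that of clusters 0, 1, 5, 6, 7, 8 and 9 pooled. Of 2132295 distal bins, 27690 passed the minimum of fragments and 10191 of these (36.8%) passed the fold, which is 0.478% of all distal bins. The members were therefore chosen by their accessibility in cluster 10 against the other clusters, and every value of that contrast is given as a description, without a test. The 17499 distal bins that passed the minimum but not the fold are called comparison bins.

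All nuclei came from wild-type (WT) C57BL/6JRj embryos, with a single library at each of E12.5, E13.5 and E15.5, made from nuclei that were isolated from frozen sections and sorted. The embryos were littermates of those in the study's spatial maps. The number of embryos in a library was not given in the sources used here, so stage, embryo and library cannot be told apart, and no test between stages was possible. Intervals are exact 95% intervals that cover counting error only. In stage order, cluster 10 had 2, 49 and 24 nuclei with 161307, 5039317 and 2042561 fragments. The 7 pooled clusters held 80825955 fragments in 1124 nuclei, and the libraries as a whole held between 9402554 and 87687839 unique fragments.

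The basic helix-loop-helix factors Myod1, Myf5, Myog and Myf6 drive the specification and differentiation of skeletal muscle. Together with widely expressed partners, these factors bind the E-box, a short DNA motif. They act largely at enhancers, stretches of open chromatin that can lie far from the genes they regulate, where they work with Mef2 and Tead family factors. In the embryo, Pax7-positive progenitors and Pax3-dependent migrating cells supply myoblasts that fuse into multinucleated fibers and then build the sarcomere. Enhancers of this kind are open in muscle and mostly closed elsewhere, but the gene that a distal region acts on cannot be read from accessibility alone.

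The muscle label of cluster 10 was checked against marker genes, counting fragments in the gene body and the 2 kb upstream. All 10 skeletal muscle markers were at least 1.5-fold above the pooled clusters, with a median of 3.75-fold and a range from 1.97 for Chrna1 to 11.4 for Actc1. The Myod1 gene had 26.5 FPM in cluster 10 and 3.65 in the pooled clusters, and Myog had 33.7 and 4.4. Heart markers had a median of 1.44-fold and 3 of 6 reached 1.5-fold, and smooth muscle markers had a median of 1.32-fold with 2 of 5, led by Acta2 at 3.65-fold. None of the 5 erythroid, 5 neuron, 4 neural progenitor, 5 mesenchyme or 4 cartilage markers reached 1.5-fold, nor did the 4 endothelium, 3 white blood cell, 3 liver and 3 Schwann markers. Of 4 epithelium markers, Trp63 reached 2.0-fold, with 8.45-fold at its promoter. The 2 nuclei of E12.5 differed from the others in part. Their summed skeletal muscle markers stood at 403 FPM, below the 612 of the E13.5 and the 781 of the E15.5 library, and above the 204 of the pooled clusters. Their summed erythroid markers stood at 223 FPM against 72.1 and 60.7, and their cartilage markers at 303 against 95.1 and 87.1. Their epithelium markers stood at 477 against 151 and 126, their Schwann markers at 186 against 25.8 and 29.9 and their mesenchyme markers at 211 against 134 and 131. The pooled clusters had 126 FPM for erythroid, 114 for cartilage, 103 for epithelium, 37.5 for Schwann and 150 for mesenchyme markers. The E12.5 nuclei were thus above the pooled clusters on these lists as well as on the muscle list. On the heart, smooth muscle, neuron, neural progenitor, endothelium, white blood cell and liver lists they were below. Single genes gave most of several E12.5 sums, Slc4a1 167 of the 223, Col2a1 260 of the 303 and Trp63 285 of the 477. The part of this in the E12.5 values of the members was not tested, and E12.5 is given as values only. No cluster 10 nucleus shared 10% or more of its fragments with another nucleus of its library, and 1 barcode of the table occurred in more than 1 library.

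The sequence at the most open point of a member is shown for the members of highest fold, for members at Myod1, Myf6 and Myog with the most fragments, and for the most covered member that lacked the myogenic E-box CAGCTG. Each window holds 200 bp of the plus strand of mm10 (GRCm38) around the point of highest Tn5 insertion density in cluster 10. Capitals mark CAGCTG, which reads the same on both strands, and, in windows without it, every other E-box (CANNTG).
Myod1 member of highest fold, chr7:46341566-46341765: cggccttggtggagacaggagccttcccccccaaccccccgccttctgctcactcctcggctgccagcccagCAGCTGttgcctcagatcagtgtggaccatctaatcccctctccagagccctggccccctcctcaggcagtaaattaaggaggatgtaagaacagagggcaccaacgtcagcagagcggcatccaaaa
Myod1 member next in fold, chr7:46315783-46315982: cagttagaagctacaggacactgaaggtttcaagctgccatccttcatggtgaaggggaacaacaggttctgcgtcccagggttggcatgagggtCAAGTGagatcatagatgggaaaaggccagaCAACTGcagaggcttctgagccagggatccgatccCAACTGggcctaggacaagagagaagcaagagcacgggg
Edn3 member, chr2:174797774-174797973: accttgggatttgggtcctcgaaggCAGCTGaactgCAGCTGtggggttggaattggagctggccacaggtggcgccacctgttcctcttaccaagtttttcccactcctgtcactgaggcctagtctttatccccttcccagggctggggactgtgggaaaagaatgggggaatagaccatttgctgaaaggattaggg
Pkhd1 and Mir206 member, chr1:20633565-20633764: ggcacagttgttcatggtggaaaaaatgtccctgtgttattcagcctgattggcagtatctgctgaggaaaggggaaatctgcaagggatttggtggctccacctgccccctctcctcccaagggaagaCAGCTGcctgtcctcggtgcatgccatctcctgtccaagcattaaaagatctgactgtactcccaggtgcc
Myod1 member tied for most fragments, chr7:46316965-46317164: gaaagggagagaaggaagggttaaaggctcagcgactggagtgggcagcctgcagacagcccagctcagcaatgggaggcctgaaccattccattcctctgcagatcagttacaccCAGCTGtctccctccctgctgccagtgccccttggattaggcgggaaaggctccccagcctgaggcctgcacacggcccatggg
Myf6 member, chr10:107543184-107543383: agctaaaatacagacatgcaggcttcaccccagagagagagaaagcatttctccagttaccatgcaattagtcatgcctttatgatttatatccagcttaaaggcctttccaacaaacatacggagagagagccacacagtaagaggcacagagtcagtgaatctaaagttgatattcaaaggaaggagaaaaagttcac
Myog member, chr1:134307502-134307701: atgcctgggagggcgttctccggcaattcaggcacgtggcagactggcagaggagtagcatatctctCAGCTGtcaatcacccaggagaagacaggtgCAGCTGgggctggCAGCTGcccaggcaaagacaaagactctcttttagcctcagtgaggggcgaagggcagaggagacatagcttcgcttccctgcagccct
Fscn1 member without the myogenic E-box, chr5:142974679-142974878: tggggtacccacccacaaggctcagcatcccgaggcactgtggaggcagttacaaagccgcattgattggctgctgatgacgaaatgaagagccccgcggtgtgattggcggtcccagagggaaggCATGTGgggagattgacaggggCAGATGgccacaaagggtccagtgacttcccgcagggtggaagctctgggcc
The E-box CAGCTG lay in 5 of these 8 windows, and the Myog window held 3 copies, while the Myf6 window held no E-box of any kind. At Myod1 the member of highest fold and the one labelled as tied both held 99 fragments. The Myod1 member next in fold had none in its window, but 2 elsewhere in the bin.

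The 10191 members lay in 8046 separate regions once adjacent bins were joined, of which 6471 were a single bin and the longest was 7 bins. A member held a median of 22 fragments in cluster 10, from 15 to 148, which came from a median of 14 of the 75 nuclei. The leading nucleus gave a median of 16.2% of a member's fragments, and in 41 members it gave 50% or more. The median level was 3.04 FPM in cluster 10 and 0.619 in the pooled clusters. The fold had a median of 4.33, and 4137 members (40.6%) lay between 3 and 4, while 450 reached 10. At the edge of the rule, the 5 members just inside, nearest to Tldc2, Smurf1, Rnf141, Kdm8 and Gas6, each had 20 fragments against 69 in the pooled clusters and a fold of 3.0002. The start of Kdm8 was 576 kb away. The 5 bins just outside, nearest to Btg2, Il17b, Trak2, Col6a3 and Gpc1, had folds of 2.9962 to 2.9972 with 24 to 60 fragments.

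Members were more often inside genes than all distal bins, but not clearly more often than comparison bins. The center of 55.0% of members lay in an intron, 5.5% in an exon and 39.5% between genes, against 41.9%, 2.86% and 55.2% of all distal bins. Comparison bins had 51.4%, 8.45% and 40.2%, so the share inside genes was close to theirs. Their median distance to the nearest protein-coding gene start was 41100 bp, against 24900 bp for comparison bins and 89700 bp for all distal bins. In 23.5% of members that distance was over 100 kb, so a gene named below as nearest can be far away. The GC content had a median of 48.1% in members, 51.3% in comparison bins and 41.4% in all distal bins. Repeats masked in the reference covered a median of 14.6% of a member and 25.8% of a distal bin.

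Cluster 10 stood apart from every other cluster in the share of fragments that fell in the members, as the rule requires for the 7 pooled clusters. It was 3.833% of cluster 10 fragments, and between 0.5558% in cluster 5 and 0.9091% in cluster 1 for the clusters that the rule pooled. Of the 4 clusters that the rule did not use, cluster 2 had 0.7641%, cluster 3 had 0.8207%, cluster 4 had 0.7867% and cluster 11 had 0.2579%. Comparison bins held 5.475% of the fragments of cluster 10, and 3.243% of those of cluster 0, and between 2.734% and 4.507% in the other 10. Among the 7 pooled clusters, cluster 1 was the highest for 22.0% of members, and cluster 5 for 8.11%. In single nuclei the share ran from 1.86% to 7.41% in cluster 10. Outside it, 4 of 1661 nuclei with at least 1000 fragments reached the lowest of these values, of which 2 were in cluster 1, 1 in cluster 2 and 1 in cluster 4. The 2 nuclei of E12.5 had 2.68% and 2.88%, within the range of the other libraries. Sub-nucleosomal fragments (too short to span the DNA wound around 1 nucleosome) made up 73.3% of cluster 10 fragments in members, 73.0% in comparison bins and 66.5% of all its fragments.

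**Figure D1:**
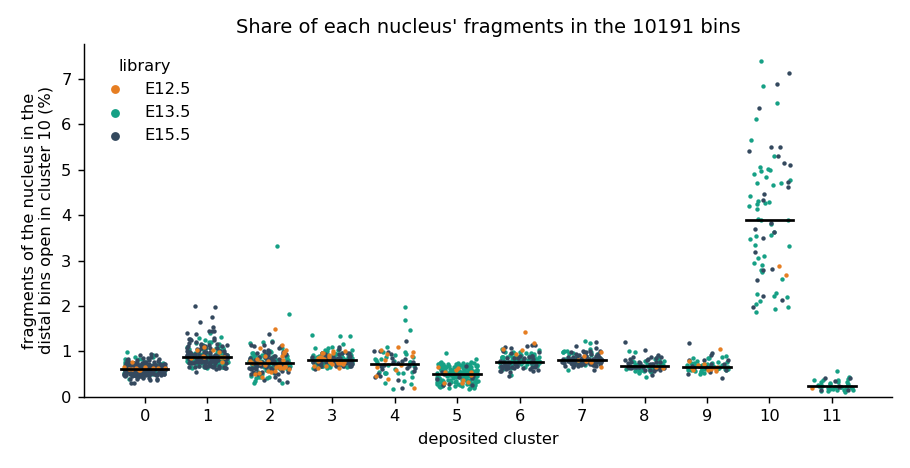
Share of the fragments of each nucleus that lay in the distal bins open in cluster 10 (percent, y axis), by deposited cluster (x axis), for nuclei with at least 1000 fragments. Points are nuclei colored by library and black bars are medians. The 75 nuclei of cluster 10 run from 1.86% to 7.41%, and the medians of the other clusters lie between 0.231% and 0.866%.

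Libraries that took no part in the choice of bins were used to see how far the members depended on the library they were chosen in. Applied to E13.5 alone, the rule kept 6570 bins, whose summed level in cluster 10 was 5.57 times that of the pooled clusters in E13.5. In E15.5, which was not used for that choice, the ratio of the same sums was 4.3, 87.0% of the bins were above the pooled clusters and 56.2% reached 3-fold. The 6712 bins that passed the minimum but not the fold in E13.5 had 1.21 in E15.5, where 58.0% were above and 9.71% reached 3-fold. In the other direction, 1448 bins chosen in E15.5 had a ratio of 7.31 there and of 4.95 in E13.5, with 98.1% above and 76.0% at 3-fold or more, while the 761 not chosen had 1.09, with 61.0% above. Without the E13.5 library the rule kept 1600 bins, of which 1388 were members, and without E15.5 it kept 6755, of which 5698 were members. The methods describe clusters made after all libraries had been integrated, so the choice of nuclei may rest on every library.

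The 10 members of highest fold included 2 nearest to Myod1 and 2 within 100 kb of the muscle microRNA gene Mir206. The highest was chr7:46341001-46342000, between genes and 35.0 kb upstream of the Myod1 TSS. It held 4, 60 and 35 fragments in stage order, and its level was 13.7 FPM in cluster 10 (11.1 to 16.6) against 0.235 in the pooled clusters, a fold of 41.1. Every library therefore contributed, and the pooled clusters had 19 fragments there in all. The next, chr7:46315001-46316000, lay 61.0 kb upstream of Myod1 with 2, 38 and 30 fragments and a fold of 32.8. Member chr2:174797001-174798000, 36.9 kb downstream of the start of Edn3, which encodes the peptide endothelin 3, had 2, 50 and 45 fragments and a fold of 30.2. Member chr1:20633001-20634000 had 0, 40 and 23 fragments and a fold of 29.5. Its nearest protein-coding gene was Pkhd1, a gene of ciliated epithelium, and the other Pkhd1 member among the highest, chr1:20624001-20625000, had a fold of 24.0. The remaining members of this group had folds from 23.0 to 25.9 and were nearest to Qk, Klhl25, Myl1, Gpr1 and Purb, of which Qk was 294 kb and Klhl25 107 kb away. Of these genes, Myl1 encodes a myosin light chain of fast skeletal muscle, and its member lay 22.9 kb downstream of the gene start. In 9 of these 10 members the bin held CAGCTG, as did 89.3% of all members of at least 10-fold.

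The bins nearest to Pkhd1 were followed up after their values had been seen, since the nearest-gene rule covered protein-coding genes only. Within 100 kb of Mir206 (chr1:20679010-20679082, plus strand), which encodes a microRNA of skeletal muscle, lay 9 members with folds from 7.75 to 29.5, of which 5 reached 10. The nearest was 2.51 kb from its start and the one of highest fold 45.5 kb. Mir133b lies beside it, so its window overlaps that of Mir206. Its 9 members within 100 kb had the same lowest and highest folds, so both counts cover shared bins. Around Mir1a-1 (chr2:180389048-180389124, plus strand), which encodes miR-1 of heart and skeletal muscle, lay 12 members with folds from 3.13 to 13.6. Their nearest protein-coding genes were Gata5 and Slco4a1. Over all distal bins 0.478% were members, and the share within these windows was not computed.

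The 10 members with the most fragments held 127 to 148. The highest, in an intron and nearest to Scx with 5, 78 and 65 fragments, had 472 in the pooled clusters and a fold of 3.46. Scx encodes a transcription factor of tendon cells. The member nearest to Fscn1 had 5, 91 and 50 fragments and a fold of 3.87. By contrast, chr15:77163001-77164000, 113 kb upstream of Mb, the gene of myoglobin, had 0, 78 and 61 fragments, 82 in the pooled clusters and a fold of 17.3. The member nearest to Adora1, chr1:134245001-134246000, had 0, 83 and 52 fragments against 118 in the pooled clusters, and lay within 100 kb of the Myog TSS. The others, nearest to Ccne1, Ehd2, Fgfr4, Capn2, Fignl1 and Zeb1, had folds from 3.21 to 7.73, and Zeb1 was 229 kb away. In cluster 10 the level of these 10 members ran from 17.5 to 20.4 FPM. In cluster 1 alone it was 10.4 to 11.9 FPM for those nearest to Scx, Ccne1, Ehd2 and Capn2. For the rest it ran from 1.06 FPM near Adora1 to 6.27 near Fignl1. Fgfr4 encodes a growth factor receptor of myoblasts.

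Myod1, which can convert other cells to muscle, had the most members of the genes on the skeletal muscle lists. The full sets at Myod1 and Myog were chosen for description after their values were seen. At Myod1, all 19 had their center outside genes, 16 upstream of the TSS at chr7:46376474 and 3 downstream. They made up 28.4% of the 67 distal bins nearest to the gene. Upstream they reached from 2.97 to 63.0 kb and fell into separate groups. Between 58.0 and 63.0 kb upstream, 6 adjacent bins held 21 to 99 fragments with folds from 8.06 to 32.8. At 23.0 and 24.0 kb upstream, adjacent bins had folds of 20.2 and 10.6, with 88 and 44 fragments. Near the gene the folds were lower, 4.29 at 2.97 kb and 6.25 at 4.97 kb upstream, with 17 and 15 fragments. Over all 19, the median fold was 8.26 and 8 reached 10. CAGCTG was found in 13 of the 19, against 76.0% of all members. The summed level of the Myod1 members was 80.6, 102 and 139 FPM in stage order, and fragments came from 1 of 2, 47 of 49 and 23 of 24 nuclei.

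Myog, which drives terminal differentiation, had 15 members that made up 48.4% of its 31 distal bins. They lay from 24.5 kb upstream to 17.5 kb downstream of the TSS, 9 of them upstream. One stood out from the rest, chr1:134307001-134308000, 17.5 kb downstream of the TSS, with 0, 75 and 33 fragments and a fold of 16.4. Its center lay beyond the end of Myog, in an intron of another gene. The other 14 had folds from 3.03 to 8.5 and at most 42 fragments. CAGCTG was found in 8 of the 15, against 76.0% of all members and 61.6% of comparison bins. The summed level of the Myog members was 0, 64.5 and 66.6 FPM in stage order, with fragments in 0 of 2, 44 of 49 and 21 of 24 nuclei.

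**Figure D2:**
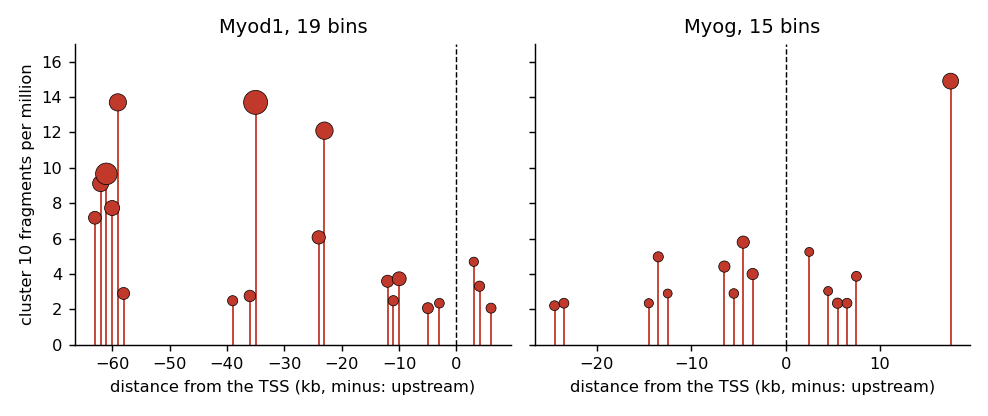
Members nearest to Myod1 and Myog by distance from the TSS (kb, negative upstream, x axis) and level in cluster 10 (FPM over all libraries, y axis). Each point is a 1 kb bin, and a larger point has a larger fold over the pooled clusters. At Myod1 the 3 highest bins lie 23.0, 35.0 and 59.0 kb upstream, and at Myog a bin 17.5 kb downstream exceeds all others.

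Of the 20 genes on the list of myogenic factors, 17 had a member. The paired-box gene Pax7, a marker of muscle progenitors, had 14, of which chr4:139771001-139772000 in an intron 62.0 kb downstream of the gene start had 1, 78 and 28 fragments and a fold of 13.6. Eya4 had 14 members and Eya2 had 11, both transcriptional coactivators, and the member of Eya2 with the highest fold reached 7.76. Mef2a, which encodes a partner of the myogenic factors, had 5 members, of which chr7:67385001-67386000 had 0, 57 and 21 fragments and a fold of 17.9. Six4, Eya1, Mef2c, Mef2d, Lbx1, Msc, Meox1 and Tbx1 had between 1 and 5 members. Myf6 had 2, of which the fuller had 0, 13 and 5 fragments and a fold of 12.2. Myf5 was nearest to none, and the 2 members within 100 kb of its TSS were those nearest to Myf6. The Myf5 gene itself was open, with 14.6 FPM in cluster 10 and 1.95 in the pooled clusters.

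Members had a muscle gene as their nearest gene more often than other bins, although most members had another nearest gene. Of the 121 genes on 5 skeletal muscle lists, 77 (63.6%) were nearest to a member, against 3869 of 20780 protein-coding genes (18.6%). The share was similar for cartilage genes, with 5 of 8 (62.5%), and lay at 41.7% for mesenchyme and 38.9% for heart genes. Of 5 autosomal Schwann and neural crest genes, 2 had a member, so a count of genes does not set the muscle lists apart from every other list. The muscle genes accounted for 330 members or 3.24%, against 1.36% of comparison bins and 0.664% of all distal bins. Among members of at least 10-fold the share was 8.22%. The same rule applied to cluster 1 gave 17052 bins with 0.874% and applied to cluster 5 gave 15674 bins with 0.37%. Of the 10191 members, 139 were also among the cluster 1 bins and 17 among the cluster 5 bins. Over all 2132295 distal bins, these sets hold 17052 and 15674. The share of members was thus above that of all distal bins for cluster 1 and below it for cluster 5. Cluster 10 was among the pooled clusters for both sets, so the rule itself limited the overlap.

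By list, 2.24% of the distal bins nearest to a myogenic factor were members, and 3.26% for sarcomere and contractile genes. The share was 2.68% for excitation and neuromuscular junction, 1.51% for fusion and muscle surface and 4.4% for muscle metabolism. The metabolism value rested on 8 members among 182 distal bins, from 2 of 8 genes. The share over all distal bins was 0.478%. Heart genes had 0.317%, smooth muscle genes 0.2% and mesenchyme genes 0.377%, and neuron and liver genes had no member. The epithelium list had 0.733% and that of Schwann and neural crest genes 0.704%, from 2 genes each. The other lists had shares from 0.138% for white blood cells to 0.45% for cartilage.

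**Figure D3:**
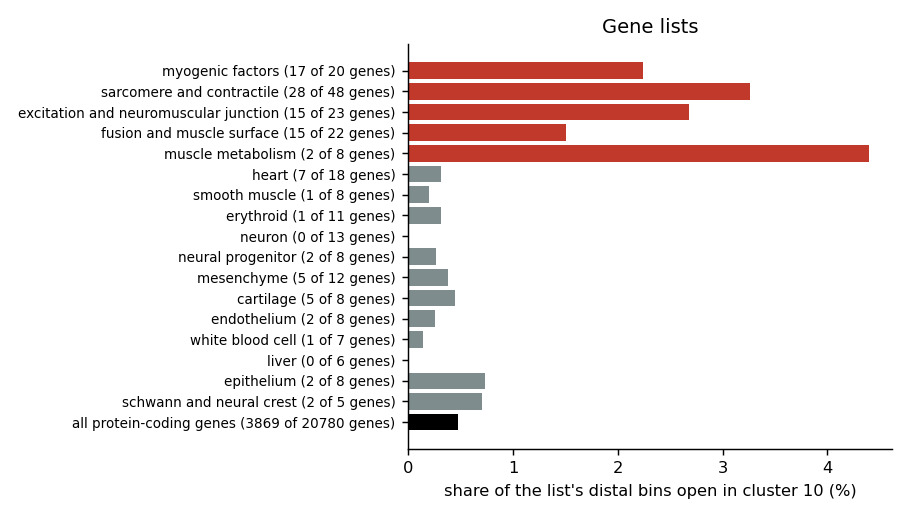
Share of the distal bins nearest to genes of each list that were open in cluster 10 (percent, x axis), with the number of genes that had such a bin. Red bars are the 5 skeletal muscle lists, gray bars the 12 others and the black bar all protein-coding genes. The red bars lie between 1.51% and 4.4%, above the 0.478% of all genes, and the highest comes from 2 of 8 genes.

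Of 48 contractile genes, 28 had a member. Myh3, the embryonic myosin heavy chain, had 12 members that made up 29.3% of its distal bins, with a highest fold of 15.4. Flnc, which encodes filamin C of the Z-disc, had 11 and 39.3% of its distal bins. Tpm1 had 9, and Actn2, Acta1, Actc1 and Myl1 had 6 each, of which a bin nearest to Actc1 reached 16.8-fold. Ttn, the gene of the giant protein titin, was picked after its values were seen. It had a single member, with 0, 12 and 7 fragments, although its promoter was 15.8-fold above the pooled clusters.

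Among genes of excitation and the neuromuscular junction, Jph2, a protein that ties the calcium store to the cell surface membrane, had 15 members and a highest fold of 15.7. Atp2a1, the calcium pump, and Dok7, which acts in synapse formation, had 4 each. On the list of fusion and surface genes, Jam3 had 14 members, Cdon, a receptor that promotes differentiation, had 7 and Mymk, the fusion protein myomaker, had 6. Cdh15, which encodes M-cadherin, had 3 members but a highest fold of 20.3. On the metabolism list, Mb had 7 members and Ampd1 had 1, and the other 6 genes had none.

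None of the 10 genes with the most members was on the skeletal muscle lists. Gas1, a surface protein that binds Hedgehog ligands, was nearest to 33 members, more than Myod1. Next were Gfra1, a receptor subunit for the ligand GDNF, with 26 and Pdgfa, a growth factor, with 24. Gm5148, Gm13090 and Col13a1 had 22 each, Tnp1, Dlk1 and Rbm20 had 21 each, and Psapl1 had 20. Of these, Col13a1 encodes a collagen of the neuromuscular junction and Rbm20 a splicing factor of titin. In all, 139 genes had 10 or more members and 1813 had 1. Large intervals hold more bins: the 33 members of Gas1 were 9.62% of its 343 distal bins, while Rbm20 had 21 members among 131.

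Promoters were read within 1000 bp of the TSS, which the rule did not count. Over all 20780 autosomal protein-coding genes the median fold of the promoter in cluster 10 over the pooled clusters was 0.816. It was 0.799 for the 16911 genes with no member, 0.914 for the 3869 with a member and 1.07 for the 572 with at least 5. Promoters at least 3-fold higher made up 0.852%, 2.97% and 5.59% of these groups. The 77 skeletal muscle genes with a member had a median promoter fold of 2.9 and the 44 without one had 2.31. A promoter belongs to the same nuclei and the same contrast as the members, so these values are a description.

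Sequence took no part in the rule, and the E-box CAGCTG was more frequent in members than in the other sets. It was found in 76.0% of members (75.2 to 76.9%), 61.6% of comparison bins (60.9 to 62.3%), 44.7% of cluster 1 bins, 41.5% of cluster 5 bins and 30.2% of all distal bins. Members with 2 copies made up 24.6% and members with 3 or more 16.9%, against 5.4% and 1.28% of all distal bins. Its share rose with the fold, from 71.1% in members between 3 and 4 (69.7 to 72.5%) to 75.9%, 84.4% and, at 10-fold or more, 89.3% (86.1 to 92.0%). Over the same ranges the median number of fragments rose from 19 to 45 and the median GC content fell from 49.0% to 45.5%.

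GC content could be set beside this comparison directly. Distal bins were divided into tertiles at 38.8% and 43.8% GC, and 82.1% of members fell in the highest. Within it, 76.8% of members, 62.2% of comparison bins and 43.9% of all distal bins held CAGCTG. In the lowest tertile the shares were 77.3%, 46.5% and 17.9%, on 238 members and 86 comparison bins, and in the middle tertile 71.7%, 51.6% and 29.2%. The share in members was thus above both in each tertile.

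The E-box was concentrated at the point of highest insertion density. Within 50 bp on either side of it, members had 4.81 and 4.95 copies per kb, and 450 to 500 bp away 0.746 and 0.807. Comparison bins had 2.26 and 2.28 copies per kb in the center and 0.712 and 0.754 at the edges. In the 200 bp around that point, 55.8% of members (54.8 to 56.8%) held the E-box, against 31.6% of comparison bins (30.9 to 32.3%). Bins of cluster 1 around their own points had 17.7% and bins of cluster 5 had 14.7%, and the middle 200 bp of all distal bins had 7.21%. The sequence preference of Tn5 was not tested.

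**Figure D4:**
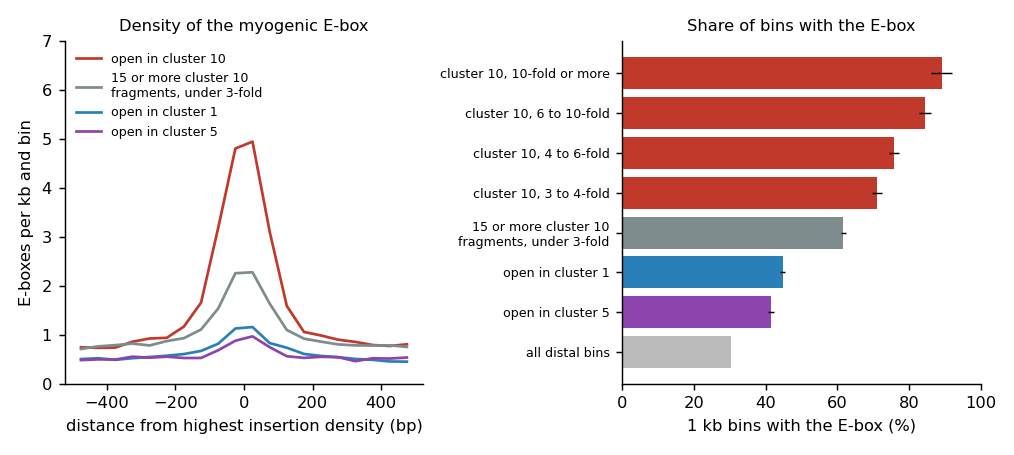
Left, copies of the myogenic E-box per kb and bin (y axis) by distance from the point of highest insertion density (bp, x axis, in steps of 50 bp) for members, comparison bins and the bins that the same rule gave for clusters 1 and 5. Right, percent of 1 kb bins with at least 1 copy, with exact 95% intervals as error bars, for members by fold and for the other sets. The members peak near 4.95 copies per kb, and their share rises from 71.1% to 89.3% with the fold.

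Other E-boxes were counted beside it. CACCTG was found in 62.4% of members, 61.7% of comparison bins and 44.8% of all distal bins, and CAGATG in 65.0%, 61.7% and 56.4%. CAACTG was found in 47.7% of members, 40.2% of comparison bins and 40.2% of distal bins. CAAATG was found in 53.1% of members, 44.3% of comparison bins and 59.9% of distal bins, and CAATTG in 11.4%, 9.5% and 17.2%. CATATG was found in 20.9% of members, in 2720 of the 17499 comparison bins and in 28.2% of distal bins. These 3 were thus more frequent in members than in comparison bins but less frequent than in distal bins. CAAGTG was found in 51.2% of members, 48.0% of comparison bins and 44.5% of distal bins, CACATG in 61.6%, 54.1% and 57.0%, and CACGTG in 15.4%, 17.6% and 9.3%. In the 200 bp around the most open point, CACCTG was found in 25.6% of members and 20.9% of comparison bins. CAGATG was found there in 24.9% and 20.8%, and in 27.4% of cluster 1 bins.

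Motifs of partner factors and of factors of other tissues were counted in the same way. The MEF2 motif was found in 10.6% of members, 7.2% of comparison bins and 17.7% of all distal bins. Within the 200 bp around the most open point it was in 2.03% of members, 1.19% of comparison bins and 2.26% of cluster 1 bins, and the part of GC content in these shares was not tested. The TEAD motif GGAATG was found in 49.4% of members, 45.9% of comparison bins and 44.1% of distal bins, and within the 200 bp around the most open point in 17.2% and 13.3% of the former. Cluster 1 bins had 51.0% and, around their own points, 16.9%, and cluster 5 bins had 41.3% and 9.47%, so the members did not stand apart from cluster 1 bins. RUNX (TGTGGT) was found in 56.7% of members, 55.6% of comparison bins and 52.8% of distal bins. AP-1 (TGANTCA) was found in these sets in 27.2%, 25.3% and 26.9%, and the SRF motif (CArG box) in 4.94%, 4.41% and 5.91%. AGATAA, the motif of Gata family factors, was found in 36.8% of members, 32.0% of comparison bins and 51.2% of distal bins, and SOX (ACAATG) in 40.6%, 34.4% and 49.9%. The homeobox motif (TAATTA) was found in 1934 members, in 15.1% of comparison bins and in 31.1% of distal bins. The full NFI motif was in 0.157% of members, 0.234% of comparison bins and 0.06% of distal bins. Motifs were searched on both strands and counted one by one, so that overlapping matches of different motifs each count, and a match is not evidence of binding.

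The last question was how the members differed by stage. In stage order, members held 2.82% (2.74 to 2.9%), 3.74% (3.72 to 3.76%) and 4.14% (4.12 to 4.17%) of cluster 10 fragments. The pooled clusters had 0.737%, 0.704% and 0.755%, so the ratio of both shares was 3.83, 5.31 and 5.49. This is the contrast that chose the bins, on sums to which E13.5 gave the most cluster 10 fragments and E12.5 the fewest. In a library not used for the choice, the ratio of sums was lower, 4.3 against 5.57 and 4.95 against 7.31. The part of the choice in the order of the stages was not tested. At E12.5, 7569 members had no fragment, and a count of 0 there allows up to 18.6 FPM, above the median level of 3.04. Single nuclei had a median of 3.89% in the E13.5 library, from 1.86 to 7.41%, and of 4.4% in the E15.5 library, from 1.99 to 7.14%, so the nuclei of both stages overlapped over most of their range.

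For a single member, the ratio of E15.5 over E13.5 had a median of 1.06, and the middle 50% of members lay between 0.617 and 1.6. Comparison bins had a median of 0.949. With the libraries scaled to fragments at TSSs in place of all fragments, the median of the same members was 0.956, so its side of 1 depends on the scaling. Of members with at least 30 fragments in both libraries together, 343 of 2757 (12.4%) were at least 2-fold higher at E15.5 and 195 (7.07%) at least 2-fold lower. Among all 5099 distal bins with as many fragments, which include the members, the shares were 10.6% and 8.02%. The 2342 comparison bins among them had 8.5% and 9.14%. Members were thus more often higher and less often lower than comparison bins. These shares used all fragments as the scale, and the differences were not tested. The higher and the lower members held CAGCTG in 89.8% (86.1 to 92.8%) and 89.2% (84.0 to 93.2%), and their intervals overlapped for the MEF2 motif as well, with 12.2% and 9.74%. The TEAD motif was in 54.2% of the higher (48.8 to 59.6%) and 44.1% of the lower (37.0 to 51.4%), and in 52.6% of the members between. The intervals of the higher and the lower overlapped for each motif, which does not show that the shares are equal. The differences were not tested.

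The member with the highest ratio, chr10:128938001-128939000, lay in an intron 4.68 kb downstream of the start of Itga7, the laminin receptor of muscle fibers, with 0, 15 and 35 fragments in stage order. Its level was 2.98 and 17.1 FPM and the ratio 5.76 (3.06 to 11.3). The next 4, nearest to Rgs2, Nenf, Sort1 and Dagla, had ratios from 5.31 to 5.55 on 32 to 41 fragments. At the other end, chr11:5887001-5888000, 9.21 kb upstream of Pold2, had 30 fragments at E13.5 and 0 at E15.5, at least 4.05-fold lower when 3 counts are taken as the floor of the library and the 30 as exact. With counting error in both, the interval of the ratio reached up to 0.323. The members nearest to Snai1, Mchr1, Arhgap24 (184 kb away) and Zfp36l1 (257 kb) had 30 to 35 fragments at E13.5 and 1 or 2 at E15.5. Snai1 encodes a transcriptional repressor of mesenchymal cells. These are the extremes of 2757 ratios, and extremes chosen in this way include counting error.

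Summed over lists, members nearest to myogenic factors had the lowest ratio of the 5 lists. It was 1.02 (0.943 to 1.09), below the 1.11 of all members (1.1 to 1.12). Contractile genes had 1.27 (1.17 to 1.37), excitation and junction genes 1.18 (1.04 to 1.33), fusion and surface genes 1.3 (1.18 to 1.43) and metabolism genes 1.9 (1.49 to 2.43). Lists of other tissues reached like values, with 1.29 (1.05 to 1.57) for the 15 members of mesenchyme genes and 1.6 (1.19 to 2.13) for the 4 of neural progenitor genes, so values of this size were not particular to the muscle lists. The other 8 lists with a member had 0.617 to 1.16, with intervals that held 1. In the pooled clusters the bins of the 5 muscle lists had 1.05, 1.03, 0.98, 1.17 and 1.06, and all members had 1.07. The metabolism value rests on 8 members, 7 of them nearest to Mb. All these list ratios were scaled to all fragments. Scaling to fragments at TSSs lowered the median of single members from 1.06 to 0.956. Which lists would keep an interval above 1 under that scaling is not given here.

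A minimum of 6 members, set after the values were seen, left 20 genes of the muscle lists, of which 8 had an interval above 1, 12 an interval that held 1 and 0 an interval below 1. All members together stood at 1.11, and of all 408 genes with as many members 94 (23.0%) lay above 1 and 40 (9.8%) below. Against 1.11, 7 of the 20 muscle genes lay above and 2 below, and of the 408 genes 51 and 73. Scaled to fragments at TSSs, 7 of the 20 lay above 1 and 2 below, against 12.7% and 17.6% of the 408. Mymk was the highest. Its members had 1, 68 and 83 fragments in stage order, a ratio of E15.5 over E13.5 FPM of 3.01 (2.16 to 4.21), with fragments in 24 of 49 and 18 of 24 nuclei. Ncam1, an adhesion molecule of myotubes, had 1.98 (1.37 to 2.85), Mb 1.82 (1.41 to 2.35) and Acta1, the skeletal alpha-actin, 1.79 (1.3 to 2.45). Myl1 had 1.54, Flnc 1.45, Actn2 1.45 with an interval that starts at 1, and Myod1 1.36 (1.17 to 1.58). In the pooled clusters, some of the same bins were also higher at E15.5 than at E13.5. These were Mymk (4.82 and 3.82 FPM), Ncam1 (3.41 and 2.33), Mb (5.14 and 4.77) and Acta1 (5.08 and 3.57). Flnc (11.4 and 11.7) and Myod1 (8.2 and 8.48) were not. The lowest ratios in cluster 10 were those of Eya4 at 0.802 (0.626 to 1.02), Cdon at 0.822 and Pax7 at 0.864 (0.684 to 1.09). The Pax7 members had fragments in 45 of 49 and 19 of 24 nuclei. Of the 57 muscle genes with 1 to 5 members, 9 had an interval above 1 and 1 below, against 449 and 206 (5.95%) of all 3461 genes with as many. Against 1.11, 6 of the 57 lay above and 1 below, and of the 3461 genes 320 and 299. Scaled to fragments at TSSs, 6 of the 57 lay above 1 (10.5%) and 1 below, against 9.39% and 8.61% of the 3461, so their share above 1 stood near the background. The highest was Ryr3, a calcium release channel, with 1 member and 4.66 (1.96 to 11.9), then Itga7 with 2 and 4.14 (2.47 to 7.1). The one below was Lbx1, a factor of migrating limb muscle progenitors, whose 4 members had 0.521 (0.277 to 0.919) on 5, 71 and 15 fragments in stage order. A change in the mix of nuclei within cluster 10 and a change within nuclei cannot be told apart in these sums, and the intervals leave out the spread between nuclei and embryos.

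**Figure D5:**
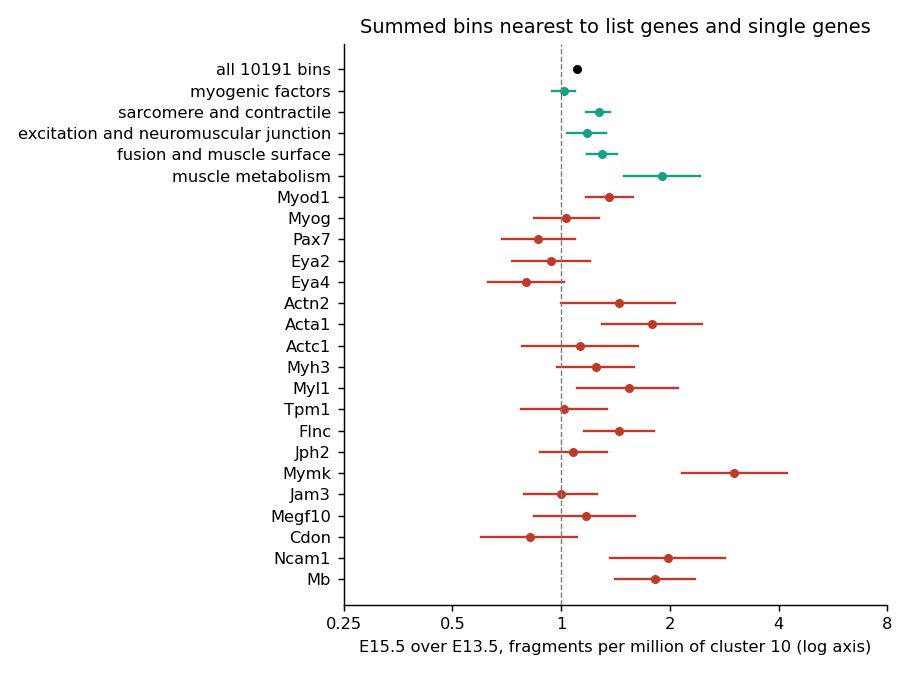
Ratio of E15.5 over E13.5 of summed cluster 10 FPM (x axis, log scale) for all members, for the members of the 5 skeletal muscle lists, and for 19 of the 20 genes on these lists with at least 6 members. Points are ratios and lines exact 95% counting intervals, with a dashed line at 1. Mymk lies highest at 3.01, and Eya4 lowest at 0.802.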

How the data were processed

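Nuclei of 3 snATAC-seq libraries were analyzed. The authors made the deposited fragment files with CellRanger ATAC 2.0.0 on mm10, which moves ends to the Tn5 insertion and collapses duplicates, and a deposited count gives the read pairs behind each fragment. A deposited table gave the library, cluster number and fragment tally of 1879 nuclei, and 20 other columns were not used. The submitters' processing notes also name Signac 1.6.0 and Seurat 4.1.0. The authors integrated the libraries, with Harmony by sample, and with spatial profiles, and describe clusters from that integration. The settings behind the deposited numbers were not stated.

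Each unique fragment was counted once at its midpoint and scaled to the cluster's fragments on chromosomes 1 to 19, X and Y. Genes came from GENCODE (release vM21), and motifs were counted in bins with at least 90% called bases. Insertion density was smoothed over 100 bp. Python 3.11.15, numpy 2.4.6 and SciPy 1.17.1 were used, and scripts were tested on simulated data. No doublet caller was run. The members and lists were chosen with earlier results of these data known. Regions named were the 10 members of highest fold, the 10 with most fragments, the fullest member of each myogenic factor, the 5 highest and 5 lowest stage ratios and 5 bins on each side of the fold. Genes named were the 10 with the most members and up to 8 per muscle list. Other choices are named as made after the values were seen. Alternatives varied thresholds, counting, scaling, bins and libraries. Some results are not reported here.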

Additional observations from a re-analysis of the deposited data

Results flagged for a closer look

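Barcodes outside the table of nuclei that held at least 1000 fragments took no part in the comparisons, and their fragments in the members are given here because they exceed what a count of 0 would allow, as almost any background would. Their shares were below those of the pooled clusters. In stage order, 36, 546 and 272 such barcodes had 0.646%, 0.697% and 0.671% of their fragments in the members. The limits that 3 counts set were 0.001%, 2.09e-05% and 3.13e-05%. The pooled clusters had 0.737%, 0.704% and 0.755%, and cluster 10 had 2.82%, 3.74% and 4.14%. In E13.5, 5 of these barcodes reached the 1.86% of the lowest cluster 10 nucleus, with a highest share of 4.64%, in E15.5 1 did, with 4.0%, and in E12.5 0 did.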

How the results depend on the processing

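Of 17 alternatives, 10 kept the number of members within 1.5 times 10191. A fold of at least 2 gave 16809 and of at least 5 gave 3632, a minimum of 10 or 30 fragments gave 18710 and 2859, and 0.5 FPM added gave 5796. Leaving out 1 library gave 1600 (without E13.5) to 10031 (without E12.5), with 6755 without E15.5. Fewer bins reach the minimum when a library is left out. Under these settings the share of members with CAGCTG was 72.8%, 82.3%, 65.1%, 89.8% and 81.5% in the same order, and without 1 library it was 76.3% to 90.2%. Scaling to fragments at TSSs gave 74.0%, and the 200 bp around the most open point 55.8%. The share nearest to a skeletal muscle gene was 2.71% and 4.41% with a fold of 2 and 5, 3.64% with 30 fragments, 3.9% with 0.5 added, 2.82% more than 5 kb from a TSS, 2.9% with scaling to TSSs and 4.4% for a gene start within 100 kb, and 3.03% to 4.06% without 1 library. The median E15.5 over E13.5 ratio was 1.01 and 1.13 with a fold of 2 and 5, 0.949 and 1.17 with 10 and 30 fragments, 1.12 with 0.5 added, 0.929 in the 13622 bins chosen with scaling to TSSs, 1.17 for members of at least 30 fragments and 1.06 without the E12.5 library. As choices made after seeing the data, it was 0.956 for the same members with libraries scaled to TSSs and 1.11 when divided by that of comparison bins. The cause of these shifts was not tested. Within their spread remained 9 of 18 alternatives for CAGCTG, 10 of 18 for muscle genes and 9 of 18 for the stage ratio. No paired analysis was possible because each stage had a single library.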
